A study of Mus musculus with 63 samples.

Results

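The genes described here encode kinases of calcium and lipid signalling: the alpha, beta, delta and gamma subunits of calcium/calmodulin-dependent protein kinase II (CaMKII; Camk2a, Camk2b, Camk2d and Camk2g), CaMKIV (Camk4), and protein kinase C (PKC) alpha, beta, epsilon and delta (Prkca, Prkcb, Prkce and Prkcd). They were picked by symbol from the table of gene counts, through the Ensembl identifiers of the GENCODE M21 annotation, and are 9 of its 55401 genes. Their transcripts are 101 of the 117135 in a second table of estimated transcript counts.

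The tissue was dorsal hippocampus, taken from adolescent mice of 2 inbred strains, C57BL/6J and DBA/2J. Both sexes received an acute injection of ethanol (1.5 g/kg) or saline, and were fear conditioned (FC) or kept as unconditioned controls (noFC), so that strain, sex, drug and conditioning made 16 groups. There were 31 C57BL/6J and 32 DBA/2J libraries: 15 groups had 4, and the C57BL/6J males with saline and FC had 3. The labels give no exact age, name no other allele or agent, and do not say whether each library is a separate animal, so p-values measure the spread between these libraries. Titles carry 16 numbers whose meaning the labels do not give; libraries with the lower 8 and the higher 8 numbers are called the first and second round below.

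CaMKII is a ring of subunits that calcium-bound calmodulin opens and that can then phosphorylate itself and stay active after calcium has fallen. In hippocampal neurons the alpha and beta subunits are among the most abundant proteins of the postsynaptic density, and alpha is required for long-term potentiation and spatial learning. CaMKIV acts mainly in the nucleus, where it phosphorylates the transcription factor CREB. PKC is switched on by diacylglycerol, and its alpha and beta isoforms also need calcium, whereas delta and epsilon do not. Mice that lack PKC epsilon are known for greater sensitivity to ethanol and for drinking less of it.

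Each library held 21027659 to 61631742 gene counts (median 26379948). After low counts were removed, 19974 genes were tested, among them all 9 kinase genes. All levels below are in CPM, that is, counts after division by the scaled size of the library. The tissue label was checked against marker genes: summed levels were 566 to 840 CPM for 6 CA1 markers, 310 to 548 CPM for 7 CA3 and CA2 markers and 293 to 720 CPM for 7 dentate gyrus markers. Markers of the neighbouring choroid plexus spanned 30.5 to 11922 CPM. For 2 libraries several kinase genes stood apart from their groups: a DBA/2J male with ethanol and FC, which had the lowest dentate gyrus sum and the highest sum of neocortex and striatum markers (249 CPM), and a DBA/2J female with saline and noFC, with the third-lowest dentate gyrus sum (378 CPM). Results for strain are given with and without this pair, an alternative added after the data were seen. Both libraries are DBA/2J and were picked by the kinase levels themselves, so leaving them out is no independent check.

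Camk2a was the most abundant of the 9 genes. To compare genes, CPM was divided by the length of all annotated exons in kb, and on that scale Camk2a stood at 614 ± 60.4 CPM per kb (SD, n = 63 libraries) and Camk2b at 155 ± 18. Prkce followed at 92.0 ± 10.9, Prkcb at 53.5 ± 5.41, Prkca at 43.9 ± 4.84 and Camk2g at 26.1 ± 2.21. The lowest were Camk4 at 13.8 ± 3.94, Prkcd at 9.18 ± 2.99 and Camk2d at 1.76 ± 0.608 CPM per kb.

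Most steps in that order held in nearly every library. Camk2a exceeded Camk2b, Camk2b exceeded Prkce, Prkce exceeded Prkcb, and Camk2g exceeded Camk4 in 63 of 63 libraries. Prkca exceeded Camk2g, and Prkcd exceeded Camk2d, in 62 of 63. The closest neighbours were Prkcb and Prkca, with Prkcb higher in 59 of 63 libraries, and Camk4 and Prkcd, with Camk4 higher in 52. In C57BL/6J alone the latter did not differ beyond their spread, at 10.1 ± 0.837 CPM per kb for Camk4 and 9.44 ± 2.92 for Prkcd (SD, n = 31).

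The order depends in part on which length is used, because genes with many annotated alternative exons are divided by more. Per kb of the leading transcript alone, Prkcb (141 CPM per kb) passed Prkce (107) and Prkcd (18.3) passed Camk4 (16.5), while Prkca (46.9) and Camk2g (45) came close together. Camk2a (923) and Camk2b (351) stayed highest and Camk2d (9.49) lowest on both scales. Among the CaMKII subunits, Camk2a made up 77.1% of the summed CPM per exon length, Camk2b 19.4%, Camk2g 3.30% and Camk2d 0.229%. Among the 4 PKC genes, Prkce made up 46.3%, Prkcb 27.0%, Prkca 22.1% and Prkcd 4.64%.

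The strain comparison set DBA/2J against C57BL/6J for each of these kinases, averaged over sex, drug and conditioning. Camk4 was 1.72-fold higher in DBA/2J, Camk2g was 8.65% higher, and Prkce and Prkcb were lower, by -13.9% and -11.8%. The remaining 5 genes did not pass the test. Thus 4 of 9 genes were called, by edgeR's quasi-likelihood test at a Benjamini-Hochberg adjusted p under 0.05, when 50% of all genes tested were called in this contrast, 25.5% higher and 24.5% lower. A share of 4 in 9 is near that background. In bulk tissue, fewer cells of a type and less RNA per cell cannot be told apart.

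**Figure D1:**
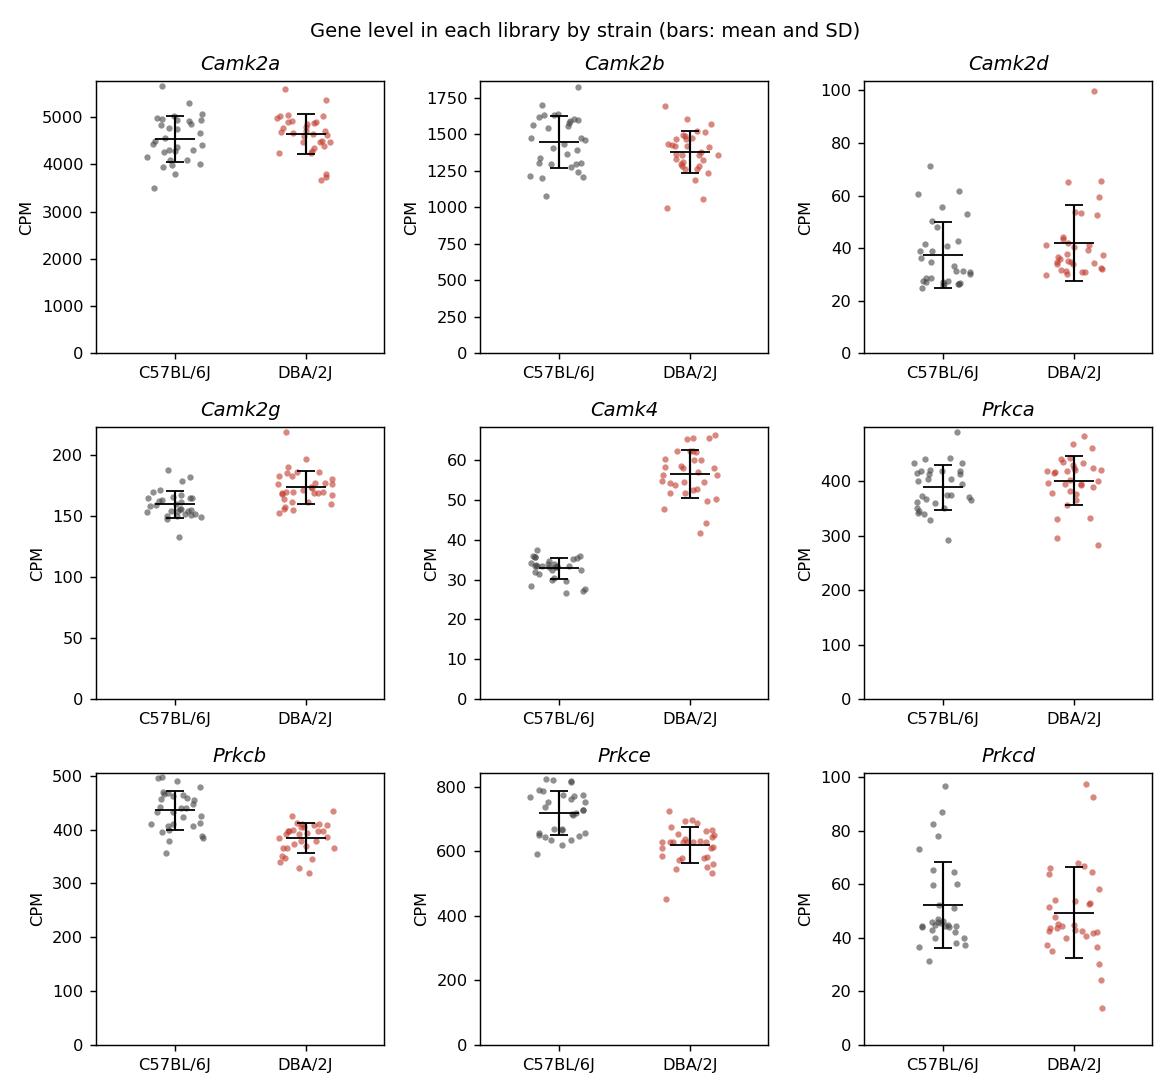
Each point is the level of a gene in 1 library, in CPM on an axis that starts at 0, for C57BL/6J (31 libraries) and DBA/2J (32), with the mean and SD. The strains separate fully for Camk4, whereas the points of Camk2a, Camk2b, Camk2d, Prkca and Prkcd overlap widely.

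Camk4 (ENSMUSG00000038128) encodes the nuclear kinase CaMKIV and lies on the plus strand of chromosome 18, 32934931 to 33191228 (build GRCm38). Its level ran from 26.6 through a median of 33.4 to 37.3 CPM in C57BL/6J, and from 41.6 through 56.6 to 66.3 CPM in DBA/2J. All 32 DBA/2J libraries were above all 31 C57BL/6J libraries, so the ranges did not overlap. The share of all genes tested whose ranges separate in this way was not counted. The means were 32.8 ± 2.73 CPM and 56.5 ± 6.10 CPM (SD, n = 31 and 32), and the log2 difference was 0.79 (SE 0.04, edgeR adjusted p = 7.3e-26). Of all genes tested, 7.08% differed by more on the log2 scale.

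Camk4 was higher in DBA/2J in all 4 combinations of drug and conditioning. In C57BL/6J the means were 32.6 ± 3.66 CPM for saline with FC (n = 7), 33.6 ± 2.28 for saline with noFC (n = 8), 32.5 ± 2.42 for ethanol with FC (n = 8) and 32.4 ± 2.89 for ethanol with noFC (n = 8). In DBA/2J the same 4 groups of 8 libraries stood at 56.9 ± 5.93, 56.4 ± 6.83, 57 ± 6.17 and 55.7 ± 6.60 CPM. No interaction of strain with ethanol (log2 0.02, 95% interval -0.13 to 0.16) or with conditioning (0.04, -0.10 to 0.19) was called. Without the 2 libraries that stand apart the strain difference was 0.81, and within the first and second rounds it was 0.74 and 0.82. A single transcript held 97.3% of the estimated counts of Camk4, 97.4% ± 4.36 in C57BL/6J and 97.2% ± 3.46 in DBA/2J.

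Prkce (ENSMUSG00000045038, chromosome 17, 86167785 to 86657919, plus strand) encodes the calcium-independent isoform PKC epsilon. It ran from 591 through a median of 727 to 826 CPM in C57BL/6J and from 452 through 628 to 725 CPM in DBA/2J. All 32 DBA/2J libraries were below the C57BL/6J median and 10 were below its lowest library, while the other 22 lay inside its range. The means were 719 ± 67.6 and 619 ± 55.6 CPM (SD, n = 31 and 32), a log2 difference of -0.22 (SE 0.03, edgeR adjusted p = 8.8e-08). Prkce-202 carried 99.99% of the estimated counts of the gene.

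Prkcb (ENSMUSG00000052889, chromosome 7, 122288751 to 122634402, plus strand) encodes PKC beta, a calcium-dependent isoform. Levels ran from 356 through a median of 440 to 497 CPM in C57BL/6J and from 318.5 through 391 to 435 CPM in DBA/2J. Here too all 32 DBA/2J libraries were below the C57BL/6J median, and 6 were below its lowest library. The share of all genes tested that lie below it in the same way, as Prkce and Prkcb did, was not counted. The means were 436 ± 36.4 and 384 ± 28.0 CPM (SD, n = 31 and 32), with a log2 difference of -0.18 (SE 0.03, edgeR adjusted p = 1.5e-07). Without the 2 libraries that stand apart both PKC genes kept their direction and their call, at -0.19 for Prkce and -0.17 for Prkcb.

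Camk2g (ENSMUSG00000021820, chromosome 14, 20734875 to 20794088, minus strand) encodes the gamma subunit of CaMKII, which is found in most tissues. It ran from 133 through a median of 158 to 188 CPM in C57BL/6J and from 153 through 170 to 219 CPM in DBA/2J. The ranges overlapped for 29 of 32 DBA/2J libraries, but 28 of 32 were above the C57BL/6J median. The means were 160 ± 11.1 and 174 ± 13.5 CPM (SD, n = 31 and 32), with a log2 difference of 0.12 (SE 0.03, edgeR adjusted p = 0.00019). Without the 2 libraries that stand apart it was 0.11.

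Markers of dentate gyrus granule cells moved with strain as well. Of the 7 markers measured, 6 were called lower in DBA/2J and none higher (median log2 difference -0.26). Over all genes tested, 24.5% were called lower and 25.5% higher. C1ql2 stood at -1.46 and Prox1, the transcription factor that sets granule cell identity, at -0.29. The summed level of the 7 markers ran from 421 through a median of 599 to 720 CPM in C57BL/6J. In DBA/2J it ran from 293 through 505 to 660 CPM, and none of the 7 was at 0 counts in any library. With the mean of these markers as a covariate, an alternative added after the data were seen, Prkce was no longer called (log2 difference 0.00, edgeR adjusted p = 0.96). In the same fit Prkcb stood at -0.08 (adjusted p = 0.15) and Camk2g at 0.11 (adjusted p = 0.060), while Camk4 stayed called at 0.91 (adjusted p = 3.0e-19). Camk2a, Camk2b and Prkca were then called higher in DBA/2J, at 0.24, 0.23 and 0.30, and Camk2d lower at -0.39, so that 5 of 9 genes were called. Prkcd stood at 0.20 (adjusted p = 0.47), against -0.09 without the covariate.

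That covariate itself carries the strain difference of its markers, so strain and marker level cannot be told apart in it. Centred within each strain, the same markers hold no difference between strains, so by construction they leave the strain values nearly where they were and take up only spread within a strain. The 4 genes kept their calls in that fit, which says nothing on the part of the markers in them, and Camk2b at -0.07 (edgeR adjusted p = 0.020) and Camk2d at 0.19 (adjusted p = 0.040) were called too, which makes 6 of 9. All 7 oligodendrocyte markers were also lower in DBA/2J (median log2 difference -0.42), with summed levels of 8198 to 17757 CPM in C57BL/6J and 5008 to 14092 CPM in DBA/2J. Astrocyte markers differed in both directions, with 3 of 6 called higher and 1 lower in DBA/2J. Over all genes tested, 25.5% were called higher and 24.5% lower, or 50% in either direction. The astrocyte sum ran from 4220 through a median of 5013 to 5624 CPM in C57BL/6J and from 4763 through 5599 to 6697 CPM in DBA/2J. The part of these markers in the kinase differences was not tested.

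The other 5 genes showed no called strain difference. Camk2a (ENSMUSG00000024617, chromosome 18, 60925618 to 60988152, plus strand), the main neuronal subunit, stood at 4538 ± 480 CPM in C57BL/6J and 4635 ± 423 CPM in DBA/2J, a log2 difference of 0.03 with a 95% interval of -0.04 to 0.10. Camk2b (ENSMUSG00000057897, chromosome 11, 5969644 to 6066362, minus strand), the actin-binding subunit, stood at 1446 ± 178 and 1376 ± 145 CPM (-0.07, interval -0.15 to 0.01). Prkca (ENSMUSG00000050965, chromosome 11, 107933387 to 108343928, minus strand), the calcium-dependent alpha isoform, stood at 389 ± 41.5 and 400 ± 45.3 CPM (0.05, interval -0.04 to 0.13). For these 3 the intervals leave room for changes of at most -9.58% to 9.18%.

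The remaining pair, Camk2d and Prkcd, varied far more between libraries and were measured less sharply. Camk2d (ENSMUSG00000053819, chromosome 3, 126596302 to 126846326, plus strand), the subunit best known from the heart, had an SD of 34.5% of its mean over the 63 libraries, and Prkcd (ENSMUSG00000021948, chromosome 14, 30595354 to 30626210, minus strand), the calcium-independent delta isoform, of 32.6%. The same figure was 8.48% for Camk2g and 9.83% for Camk2a. Camk2d ran from 24.8 through a median of 31.4 to 71.4 CPM in C57BL/6J and from 29.96 through 37.02 to 99.8 CPM in DBA/2J, where 28 of 32 libraries were above the C57BL/6J median. Its log2 difference of 0.19 had a wide 95% interval, -0.02 to 0.39 (edgeR adjusted p = 0.12). Prkcd stood at 52.3 ± 16.2 CPM in C57BL/6J and 49.5 ± 17.1 CPM in DBA/2J (-0.09, interval -0.32 to 0.15). Without the 2 libraries that stand apart none of these 5 genes was called either, but the log2 differences moved to 0.12 for Camk2d, -0.03 for Prkcd, -0.04 for Camk2b, 0.08 for Prkca (edgeR adjusted p = 0.075) and 0.05 for Camk2a.

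The make-up of each family differed slightly between the strains. Camk2b was 19.95% ± 0.727 of the CaMKII subunits per exon length in C57BL/6J and 18.8% ± 0.870 in DBA/2J, and Camk2g was 3.18% ± 0.399 and 3.42% ± 0.482 (SD, n = 31 and 32). Among the PKC genes Prkce made up 47.4% ± 1.51 and 45.1% ± 1.26, and Prkca made up 20.7% ± 0.700 and 23.5% ± 1.17. These shares follow from the levels above and were not tested on their own.

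Camk2g was read as several alternative transcripts, whose estimated proportions were compared between the strains. Estimated counts gave Camk2g-201 a share of 61.0%, Camk2g-202 of 18.5% and Camk2g-203 of 11.04%. Their coding parts differ by cassette exons in the variable linker between the kinase domain and the part that joins subunits into a ring. Camk2g-201 carries both exons, Camk2g-202 lacks the 33-base exon 14 (chr14:20747819-20747851, minus strand, build GRCm38), and Camk2g-203 lacks that exon and the 69-base exon 15 (chr14:20745792-20745860). The transcripts also differ in length outside the coding part, with 3703, 3604 and 3564 bases, of which 1587, 1554 and 1485 are coding. All sequences below are coding, from the GENCODE M21 transcripts and written 5′ to 3′. They are shown because they tell the coding parts of the 3 transcripts apart. In the first pair the capitals mark the exon, between 15 bases of each neighbouring exon, and in the last pair they mark the first 15 bases joined to the end of exon 13 where exons are left out. Exon 14 codes for the run of basic residues known as a nuclear localisation signal in some CaMKII splice forms.
Camk2g-201, exon 14: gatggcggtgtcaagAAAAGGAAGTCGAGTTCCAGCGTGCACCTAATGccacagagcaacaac
Camk2g-201, exon 15: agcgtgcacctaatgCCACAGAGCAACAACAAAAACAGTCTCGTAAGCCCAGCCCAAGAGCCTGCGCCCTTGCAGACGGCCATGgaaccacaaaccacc
Camk2g-202, join: gatggcggtgtcaagCCACAGAGCAACAAC
Camk2g-203, join: gatggcggtgtcaagGAACCACAAACCACC

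The share of Camk2g-203, the shortest form, ran from 0 through a median of 8.37% to 21.7% in C57BL/6J and from 0 through 13.2% to 26.7% in DBA/2J. It was listed at 0 in 5 of 31 and 1 of 32 libraries. The mean shares were 8.94% ± 6.19 and 12.8% ± 5.58 (SD, n = 31 and 32), so the ranges overlapped almost fully while the mean was higher in DBA/2J. Camk2g-202, which lacks exon 14 alone of the cassette exons, made up 20.2% ± 4.25 in C57BL/6J and 16.6% ± 4.83 in DBA/2J. Camk2g-201 made up 61.4% ± 5.87 and 61.1% ± 4.99.

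Transcript usage was tested with limma's diffSplice over 9512 genes with at least 2 transcripts of sufficient share, which left 4 of the 9 kinase genes: Camk2d, Camk2g, Prkcb and Prkcd. For strain 1 of the 4, Camk2g, was called (diffSplice adjusted p = 0.0011), against 25.7% of all genes tested. A share of 1 in 4 is near that background. Camk2g-203 rose in DBA/2J relative to the gene's other transcripts by 1.70 on the log2 scale (SE 0.42, diffSplice adjusted p = 0.00090). Its mean shares, 8.94% in C57BL/6J and 12.8% in DBA/2J, differed by a smaller factor than this. A permutation test of the mean shares themselves, added after the data were seen, gave a difference of 3.88 percentage points for Camk2g-203 (adjusted p = 0.0221), -3.63 for Camk2g-202 (adjusted p = 0.00612) and -0.30 for Camk2g-201 (adjusted p = 0.837, over 3 transcripts). Without the libraries listed at 0 the diffSplice call was borderline (adjusted p = 0.0496). Alone, the first round gave an adjusted p of 0.065 and the second of 0.64, and neither round called the gene.

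**Figure D2:**
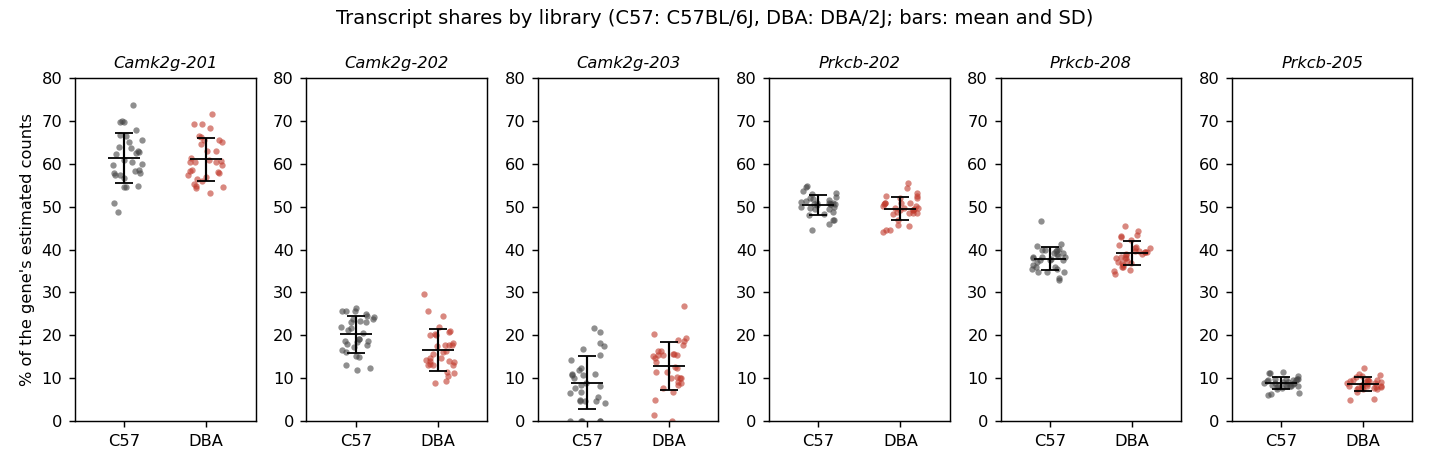
Share of a gene's estimated counts on each transcript, in percent from 0 to 80, with 1 point per library and the mean and SD for C57BL/6J (C57) and DBA/2J (DBA). Camk2g-202 is lower and Camk2g-203 higher on average in DBA/2J with wide overlap, and the 3 Prkcb transcripts lie at the same level in both strains.

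Prkcb is known for a pair of proteins, PKC beta I and beta II, that differ only at their last residues and come from alternative final exons. Here Prkcb-202 codes for the beta II end and Prkcb-201 for the beta I end. The final coding bases below, from GENCODE M21 transcripts on build GRCm38, plus strand, show how the ends differ (chr7:122627656-122627811 for Prkcb-202 and chr7:122633745-122633894 for Prkcb-201), with the last 30 coding bases before the stop codon in capitals.
Prkcb-202: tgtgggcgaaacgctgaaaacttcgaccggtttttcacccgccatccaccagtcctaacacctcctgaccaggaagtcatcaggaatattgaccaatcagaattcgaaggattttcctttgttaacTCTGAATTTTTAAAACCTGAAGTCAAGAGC
Prkcb-201: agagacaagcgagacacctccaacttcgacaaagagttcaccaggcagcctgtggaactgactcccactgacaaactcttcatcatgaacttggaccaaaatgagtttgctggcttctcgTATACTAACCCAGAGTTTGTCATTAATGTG

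Prkcb-202 held 50.1% of the estimated counts of the gene and Prkcb-201 only 2.13%. A further 38.5% lay on Prkcb-208, a transcript of 1 exon (122633448 to 122634402) that contains the whole 658-base last exon of Prkcb-201, and 8.70% on Prkcb-205, annotated as a target of nonsense-mediated decay. Reads from the beta I exon match Prkcb-201 and Prkcb-208 alike, so the low share of Prkcb-201 is not a measure of beta I against beta II. Between strains the shares were close, at 50.5% ± 2.35 and 49.6% ± 2.75 for Prkcb-202 and 37.9% ± 2.70 and 39.1% ± 2.81 for Prkcb-208 (C57BL/6J and DBA/2J, SD, n = 31 and 32), and no change of usage was called (diffSplice adjusted p = 0.48).

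The other genes were dominated by single transcripts or showed no called change. Camk2a-203 held 98.2%, Camk2b-209 94.2% and Prkca-201 99.97% of their genes' estimated counts, so these genes did not enter the test. Camk2d was split between Camk2d-206 (56.5%) and Camk2d-228 (24.1%), with an adjusted p for strain of 0.41 by diffSplice. Prkcd was split between Prkcd-207 (66.8%), Prkcd-205 (11.5%) and the retained-intron form Prkcd-211 (7.42%), with an adjusted p of 0.60. For ethanol and for conditioning none of the 4 tested genes was called, against 1.88% and 0.568% of all genes.

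The ethanol comparison asked whether the injection changed these kinases, in both strains together and in each. None of the 9 genes was called with both strains together, where 0.546% of all genes tested were called by edgeR, nor in C57BL/6J (0.0901%) or DBA/2J (0.295%). With both strains together no gene reached an unadjusted p under 0.05, and DESeq2 called none either. The log2 differences ran from -0.05 for Prkcd to 0.11 for Camk2d. A count of 0 is what backgrounds this low would give for 9 genes of any kind, so the intervals carry the result.

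For the sharply measured genes the intervals were narrow. With ethanol Prkce, the isoform linked to ethanol responses in knockout mice, stood at 724 ± 60.3 CPM under saline and 714 ± 75.5 under ethanol in C57BL/6J (SD, n = 15 and 16), and at 622 ± 62.1 and 616 ± 50.1 CPM in DBA/2J (n = 16 and 16). Its change over both strains was -1.15%, with a 95% interval of -5.45% to 3.35%. Camk2a changed by -2.20% (interval -6.88% to 2.71%), Camk2b by -2.75% (-7.87% to 2.66%), Camk4 by -1.11% (-5.95% to 3.98%) and Prkcb by -1.60% (-5.31% to 2.26%).

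Prkca changed by -2.25% (-7.58% to 3.40%) and Camk2g by 1.17% (-2.58% to 5.06%). For Camk2d and Prkcd the intervals were wide, from -6.21% to 24.1% and from -17.8% to 13.6%. Camk2d ran from 24.8 through a median of 33.2 to 53.0 CPM under saline and from 26.5 through 31.1 to 71.4 CPM under ethanol in C57BL/6J, and from 29.96 through 39.8 to 65.5 and from 30.3 through 34.8 to 99.8 CPM in DBA/2J. The ethanol groups held the highest single libraries in both strains, but their medians were below those of saline.

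**Figure D3:**
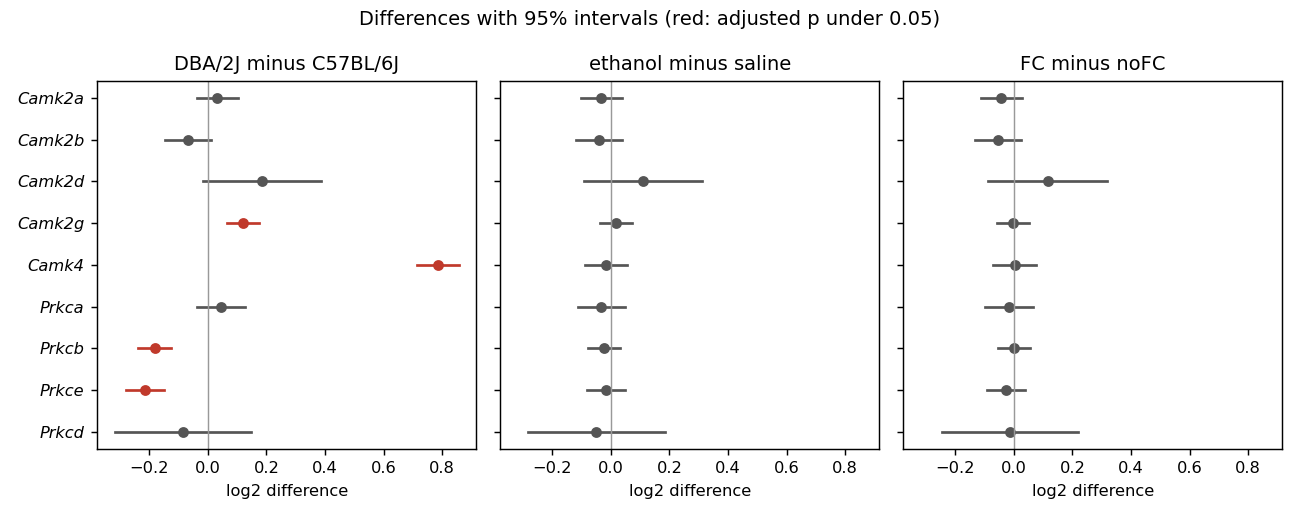
Points are log2 differences and lines their 95% intervals, for DBA/2J minus C57BL/6J, ethanol minus saline and FC minus noFC, with an adjusted p under 0.05 in red. Camk4, Camk2g, Prkcb and Prkce are red for strain, every interval for ethanol and conditioning includes 0, and Camk2d and Prkcd have the widest intervals.

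The conditioning comparison asked whether FC mice differed from noFC mice. Again none of the 9 genes was called, with both strains together (0.0200% of all genes tested) or in C57BL/6J or DBA/2J, where edgeR called 0% of genes, no kinase reached an unadjusted p under 0.05 and DESeq2 called no kinase either. Camk2a, whose product is modified and moved during learning, stood at 4502 ± 526.4 CPM in FC and 4571 ± 447 CPM in noFC in C57BL/6J (SD, n = 15 and 16), and at 4544 ± 450 and 4726 ± 387 CPM in DBA/2J (n = 16 and 16). Its change over both strains was -2.93%, with a 95% interval of -7.57% to 1.95%. Camk2b changed by -3.61% (-8.69% to 1.74%), Camk2g by -0.13% (-3.83% to 3.71%) and Camk4 by 0.18% (-4.73% to 5.34%).

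Prkcb changed by 0.091% with conditioning (-3.68% to 4.01%), Prkce by -1.86% (-6.13% to 2.60%) and Prkca by -1.11% (-6.51% to 4.60%). Camk2d (8.30%, interval -5.84% to 24.6%) and Prkcd (-0.91%, -15.7% to 16.4%) were again the least certain. RNA level alone was measured, and the labels do not give the time between conditioning and dissection. The interactions of ethanol with strain (0.0100% of all genes called), conditioning with strain (0%) and ethanol with conditioning (0%) called none of the 9.

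Across these contrasts and sex, where 0.200% of genes and none of the 9 were called, the smallest unadjusted p outside strain was that of Prkcd for ethanol by conditioning. The log2 difference of effects was -0.48 (95% interval -0.95 to -0.02, edgeR adjusted p = 1.0). It was -1.05 in the first round alone and 0.18 in the second, so its sign differed between the rounds. In C57BL/6J the medians were 44.0 CPM for saline with FC (7 libraries), 45.3 for saline with noFC, 44.5 for ethanol with FC and 49.3 for ethanol with noFC (8 each). In DBA/2J the 8 libraries of each group had medians of 61.1 CPM for saline with FC, 43.6 for saline with noFC, 42.5 for ethanol with FC and 49.7 for ethanol with noFC. Their ranges overlapped throughout, from 35.2 to 92.7, 24.3 to 66.2, 13.8 to 68.2 and 37.4 to 97.6 CPM, so the pattern did not hold up against the spread between libraries.

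Levels of the 9 genes varied together between libraries of the same group. After the group mean was taken off log2 CPM, Camk2b and Prkce had a Pearson r of 0.91 over 63 libraries (Spearman 0.90), Camk2a and Camk2b of 0.89 (Spearman 0.88), and Camk2a and Prkce of 0.85 (Spearman 0.89). Each had a permutation p of 1e-05, the smallest that 100000 permutations within groups can give, and an adjusted p of 2.6e-05 over the 36 pairs. All 15 pairs among Camk2a, Camk2b, Camk4, Prkca, Prkcb and Prkce were positive and passed an adjusted permutation p under 0.05, from 0.50 to 0.91. Within the rounds the 15 values ran from 0.39 to 0.88 in the first and from 0.36 to 0.92 in the second.

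Camk2d went the other way. Its r was -0.77 with Camk2a, -0.73 with Camk2b, -0.69 with Prkce and with Prkca, -0.58 with Prkcb and -0.56 with Camk4, and all 6 passed the permutation test. Without the 2 libraries farthest from the median the first of these was -0.76 and the last -0.57. Within the rounds these 6 ran from -0.49 to -0.67 in the first and from -0.57 to -0.78 in the second. Libraries of a group with more Camk2a thus had less Camk2d.

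The pair Camk2g and Prkcd was also negative (r = -0.51, Spearman -0.48, adjusted permutation p = 0.0013), but this was -0.63 in the first round and -0.07 in the second. In all, 22 of 36 pairs passed, 15 positive and 7 negative, and 9 and 8 passed within the first and second round alone. How many pairs of any genes would pass was not tested, so these counts are not shown to be particular to the kinases. These correlations share the dissection and the total of each library, and what sets them was not tested.

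**Figure D4:**
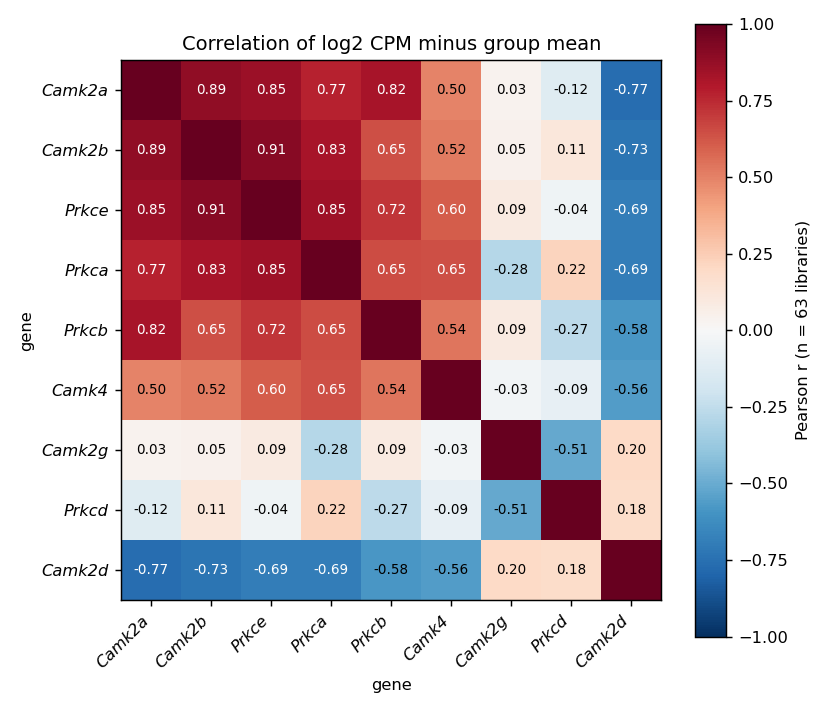
Pearson r of log2 CPM minus group mean for each pair of genes over 63 libraries, from -1 (blue) to 1 (red). Camk2a, Camk2b, Prkce, Prkca, Prkcb and Camk4 form a block of values from 0.50 to 0.91, Camk2d is negative with all 6, and Camk2g and Prkcd stand mostly near 0.

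The genes whose levels were most like each kinase were found by the same measure over 63 libraries. The search covered genes tested that have a symbol, leaving out symbols of Gm and digits or ending in Rik. For Camk2a they were Iqsec2 (r = 0.94), Arhgef25 (0.93) and Camta2 (0.92), and for Camk2b Ptk2b (0.97), Slc8a2 (0.96) and Btbd9 (0.96). For Prkce they were Enc1 (0.95), Rbfox1 (0.94) and Slc7a14 (0.93), for Prkca Gria1, Epha4 and Ppm1e (0.92, 0.92 and 0.91), and for Prkcb Sipa1l1, Kcnq3 and Dlgap1 (0.84 each). Camk2d was most like Dpp10 (0.93), Hs3st2 (0.90) and Atp2b4 (0.90), Camk2g like Kcnc4 (0.89), Kcnj9 (0.87) and Tbc1d30 (0.82), and Camk4 like Armh4 (0.80), Zyg11b (0.77) and Nrip3 (0.75). Prkcd was most like Cacng5 (0.90), Zic4 (0.84) and Zic2 (0.84).

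Prkcd is known as an abundant gene of the thalamus, which lies under the hippocampus, so its level was set against 9 thalamus markers. Their summed level ran from 60.9 to 168 CPM with medians of 80.9 CPM in C57BL/6J and 89.4 CPM in DBA/2J, 83.6 under ethanol and 89.0 under saline, and 85.6 in FC and 86.5 in noFC. Tcf7l2 ran from 4.46 to 13.2 CPM, and Shox2 was at 0 counts in 21 of 63 libraries. Log2 CPM of Prkcd rose with the mean log2 CPM of the markers (r = 0.387, permutation p = 0.0031, Spearman 0.333, permutation p = 0.0076, n = 63), and without the 2 farthest libraries r was 0.316 (permutation p = 0.0122).

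That relation was carried by few of the markers. With Zic1 alone, a transcription factor that also marks the septum and the meninges, r was 0.803 (permutation p = 1e-05, the smallest possible) and with Tcf7l2 alone 0.393 (permutation p = 0.0022). For the other 7 markers alone r ran from -0.20 to 0.17, and none passed 0.05. Zic1 ran from 5.75 to 103 CPM. The 2 libraries with the least Zic1 were also the lowest in Prkcd, at 13.8 and 24.3 CPM, and both were DBA/2J males that share a title number. The pooled r was 0.516 within C57BL/6J (permutation p = 0.0038) and 0.303 within DBA/2J (permutation p = 0.0924), and 0.370 and 0.576 within the rounds (permutation p = 0.045 and 0.00045). By rank the strains came out the other way, with a Spearman value of 0.291 within C57BL/6J (permutation p = 0.113) and 0.386 within DBA/2J (permutation p = 0.0294), and the rounds gave 0.290 (permutation p = 0.111) and 0.468 (permutation p = 0.0073).

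The same marker mean was set against the other 8 genes, an addition made after the data were seen. Camk2d rose with it (r = 0.529), whereas Camk2a (-0.632), Camk2b (-0.527), Prkcb (-0.486), Prkce (-0.473) and Prkca (-0.467) were lower in libraries with more of it, each with an adjusted permutation p of at most 0.00029 over 9 genes. Spearman values were 0.686 for Camk2d and from -0.730 to -0.542 for the others, and without the 2 farthest libraries r was 0.602 for Camk2d and from -0.668 to -0.507 for the others. Within the second round all 6 passed, whereas within the first Prkce (-0.241), Prkcb (-0.348) and Prkca (-0.345) did not pass an unadjusted permutation p under 0.05. Camk2g (r = -0.01) and Camk4 (-0.12) did not pass over all libraries, which for Camk4 include its strain difference. Within DBA/2J Camk4 stood at -0.514 (permutation p = 0.0023) and by Spearman at -0.497 (permutation p = 0.0040). Within C57BL/6J it stood at -0.273 (permutation p = 0.136) and by Spearman at -0.490 (permutation p = 0.0056). With the marker mean as a covariate the strain differences were 0.79 for Camk4, -0.21 for Prkce, -0.18 for Prkcb and 0.12 for Camk2g, and the same 4 genes were called.

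**Figure D5:**
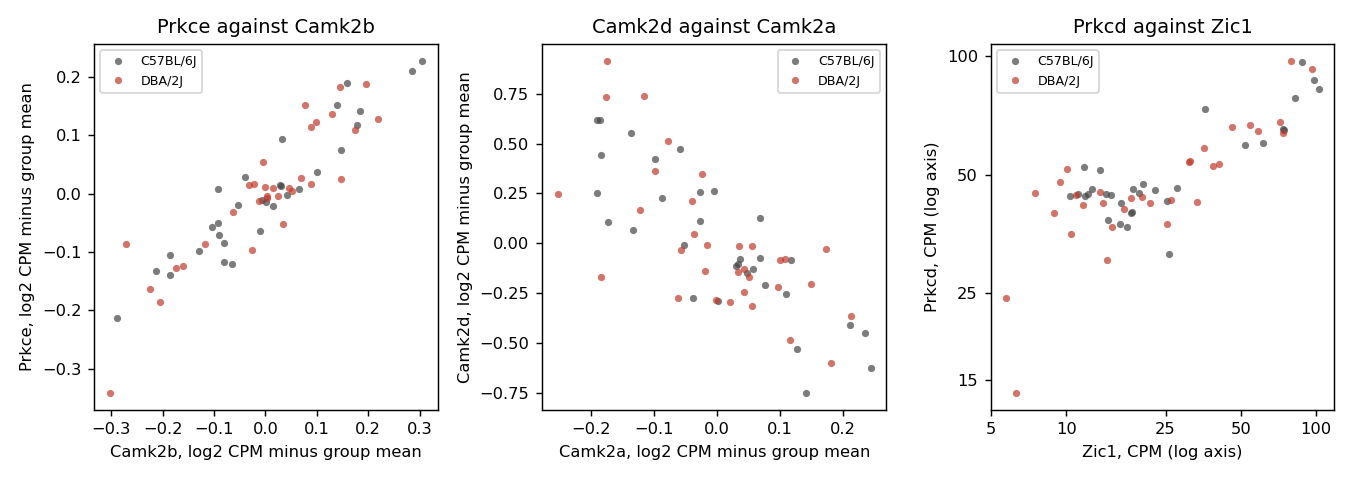
Each point is 1 of 63 libraries: Prkce against Camk2b and Camk2d against Camk2a, both as log2 CPM minus the group mean, and Prkcd against Zic1 in CPM on log axes. Prkce rises with Camk2b (r = 0.91), Camk2d falls with Camk2a (r = -0.77), and Prkcd is highest where Zic1 is highest (r = 0.80).

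Around these kinases, 83 further genes of the same pathways were counted, all of which passed the filter. For strain 14 were higher and 36 lower in DBA/2J, which is 60.2% of the list when 50% of all genes were called, and the median log2 difference was -0.05 against 0.01 over all genes tested. For ethanol and for conditioning, with both strains together, none of the 83 was called, against 0.546% and 0.02% of all genes tested. Backgrounds this low leave few calls for any list of this length. Many of the strain differences were small.

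Calmodulin, the calcium sensor that opens CaMKII, its binding proteins and the phosphatase calcineurin gave 1 higher and 7 lower of 12, where 25.5% of all genes were called higher and 24.5% lower. Pcp4, a calmodulin-binding protein that is also a CA2 marker, fell from 108 ± 12.4 to 85.9 ± 9.93 CPM (log2 -0.32), and Ppp3r1, the regulatory subunit of calcineurin, from 1271 ± 136 to 1034 ± 105 CPM (-0.29). Rcan1, a calcineurin inhibitor, rose from 49.8 ± 3.24 to 56.3 ± 3.03 CPM (0.18). Of 10 other CaM kinases and CaMKII inhibitors 1 was higher and 4 lower, among them Camkk1, which activates CaMKIV, at -0.26 (SE 0.03), and Camk2n1, an endogenous inhibitor of CaMKII, which fell from 818 ± 82.5 to 679 ± 120 CPM (-0.28).

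On the lipid side, genes that make or remove diacylglycerol gave 4 higher and 8 lower of 16, against the same 25.5% and 24.5% over all genes. Dgkh, a kinase that removes the PKC activator diacylglycerol, had the largest difference of the 83 genes, from 258 ± 30.6 CPM in C57BL/6J to 157 ± 19.6 CPM in DBA/2J (log2 -0.72, SE 0.04, edgeR adjusted p = 1.9e-21). Plcb3, a phospholipase that makes it, fell by 0.19 on the log2 scale. Of 10 other PKC and protein kinase D genes 2 were higher and 5 lower, with Prkd3 at -0.28. PKC substrates and scaffolds gave 2 higher and 3 lower of 9, with the adducin Add2 at -0.17. Called in either direction were 7 of 10 and 5 of 9, against 50% of all genes.

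At the synapse, 2 of 15 partners and substrates of CaMKII were higher and 6 lower in DBA/2J, a share near the 50% of all genes called in either direction. Grin2b, the NMDA receptor subunit to which CaMKII binds, fell from 567.6 ± 62.8 to 478 ± 56.5 CPM (log2 -0.25), and Shank1, a scaffold, by 0.10 on the log2 scale. Cacng2, an auxiliary subunit of AMPA receptors, fell from 58.9 ± 4.86 to 53.4 ± 4.67 CPM (-0.14). CREB and its kinases, downstream of CaMKIV, gave 2 higher and 3 lower of 11, with Crtc1, a CREB coactivator, at -0.14 and Crebbp, another, at 0.08. Counts alone were compared here, and no list was tested against the others.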

How the data were processed

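The authors deposited whole-number read counts per gene and estimated counts per transcript, 1 column per library. The build was GRCm38, a genome of C57BL/6J, and the tools named are DESeq2, Salmon, featureCounts, HISAT2 and fastp, without versions or order, per the submitters' processing notes. How that reference affects counts of DBA/2J reads was not tested. Per the labels' protocols, libraries were stranded and made from mRNA, and the strand setting of counting is not given in the sources used here.

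Counts were analysed with edgeR 4.0.16 in R 4.3.3 (filterByExpr with a minimum count of 10, TMM scaling, 1 coefficient per group over all 63 libraries, quasi-likelihood test, two-sided). P-values were adjusted by Benjamini-Hochberg over 19974 genes and called under 0.05, and log2 CPM used a prior count of 2. Transcript counts were rounded and tested with voom and diffSplice in limma 3.58.1, for transcripts with at least 10 counts in 3 libraries and 5% of their gene's counts (26772 transcripts, of which 9512 genes had several). Correlations used 100000 permutations. The fits were tested on simulated data.

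The 9 genes and all lists were chosen with earlier results of these data known. Named were the 9 genes, up to 3 called genes of each list by smallest p, and the 3 genes most like each kinase. Alternatives were DESeq2 1.42.0, other scaling, no filter, gene sums of transcript counts, rounds of titles, marker covariates and leaving out libraries. Sequences and positions are from GENCODE M21, which held 55141 of the 55401 identifiers.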

Additional observations from a re-analysis of the deposited data

Results flagged for a closer look

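Groups of strain, drug and conditioning held 7 or 8 libraries each, of both sexes. In them, 7 of the 72 combinations of gene and group held a library whose gap to its nearest neighbour was a large share of the group's range. The threshold gives about 1 in 20 for independent, normally distributed values. These genes vary together within libraries, so 7 of 72 is not shown to be an excess. A DBA/2J male with ethanol and FC had the lowest Camk2b of its group (997 CPM, next 1233) and the highest Camk2d (99.8 CPM, next 59.3). It also had the lowest Prkcd and the highest Camk2g (219 CPM) of all 63 libraries, at an ordinary depth of 31359096 counts, and the lowest sums of CA3 and CA2 and of dentate gyrus markers (310 and 293 CPM). A DBA/2J female with saline and noFC had the lowest Camk4 (41.6 CPM, next 54.4), Prkca (282 CPM, next 364) and Prkce (452 CPM, next 579) of its group. Its sum of dentate gyrus markers was 378 CPM, against a median of 551 over all libraries. Their part in these values was not tested.

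Prkcd was far above its group in a C57BL/6J male with ethanol and FC (86.9 CPM, next 46.3) and in a DBA/2J female with ethanol and noFC (97.6 CPM, next 53.7). Their summed thalamus markers were 157 and 140 CPM, against a median of 85.6 over all libraries, and the first also had the second-highest sum of oligodendrocyte markers (17604 CPM). The part of either in the level of Prkcd was not tested.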

How the results depend on the processing

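The number of kinase genes called for strain was 4 with DESeq2, other scaling, no filter, transcript sums, either round of titles alone and the thalamus or choroid plexus covariate, and 4 to 4 when each library was left out in turn. It was 0 in every such run for sex, ethanol, conditioning and their interactions (0 to 0), and the usage count for strain was 1 to 1. Sizes moved more than calls, as given above for ethanol. For conditioning in DBA/2J the log2 difference of Prkca ran from -0.100 to 0.081 over 15 settings. The dentate gyrus marker mean as a covariate reversed Camk2d (-0.39), Camk2b (0.23) and Prkce (0.00, 0.0040 before rounding), and turned the uncalled Prkcd from -0.09 to 0.20. Usage calls for strain were 0 and 0 in the first and second round of titles alone, which hold fewer libraries, and for ethanol 1 in the second (Camk2g, diffSplice adjusted p = 0.0316). For Prkcd and thalamus markers r was 0.303 within DBA/2J, and for single markers -0.0031 (Lef1), -0.066 (Ramp3), -0.146 (Slc17a6), -0.203 (Tnnt1), 0.135 (Rgs16), 0.166 (Shox2) and 0.044 (Ntng1). Pairs passing were 9 and 8 within the rounds. With the title number as a replicate block, 0 kinase genes were called for ethanol, conditioning and their interactions, while calls over all genes went from 109 to 155 for ethanol and from 59 to 109 in DBA/2J. Libraries with the same number had a median r of 0.040 over 93 pairs (from -0.52 to 0.48), with 32 pairs over 0.1. Pairs with different numbers had a median r of -0.0097 over 279 pairs (from -0.55 to 0.58), with 73 over 0.1. What a number stands for is not given, so the block was not read as a paired analysis. Over all genes, ethanol calls were 109, against 66 without a filter and 11 and 34 in the first and second rounds; in C57BL/6J 18, against 0 and 1 in the rounds; and in DBA/2J 59, against 33 without a filter, 103 with DESeq2, 15 in the second round and 27 with that strain alone. Sex calls were 40, against 26 from transcript sums and 17 and 23 in the rounds. Usage calls over all genes were 2443 for strain (1546 in the first round), 179 for ethanol (306 and 98 with transcripts of at least 1% and 10%, 81 and 89 in the rounds, 112 with the block) and 54 for conditioning (158 and 19, 26 in the first round, 9 with the block). Within a round the title letter coincides with drug and conditioning, so these cannot be told apart there. Between the rounds the letters of ethanol and saline swap, whereas FC is always A or C and noFC always B or D. Conditioning and these letter pairs thus cannot be told apart in the whole series.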
